A study of Mus musculus with 24 samples.

Results

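The 47 genes described here build and regulate epithelium in the mouse jaw primordia. They comprise 8 keratins, 7 genes of adherens and tight junctions, 7 desmosome genes, 6 genes that anchor cells to the basement membrane, 12 regulators of transcription and splicing, 4 membrane proteases and protease inhibitors, and 3 genes of trafficking and cell cycle. They were picked by symbol from a list, drawn up with earlier results of these data known, out of 18193 genes on the array, and all 47 were measured. Signal is on the log2 scale and comes, for each gene, from the probe set that was brightest on average over the 24 arrays, so a difference of 1 is a doubling.

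The arrays hold RNA of mandible and maxilla from mouse embryos at embryonic day 12.5, each jaw cut into a distal and a proximal end, of Tgfbr2 knockout embryos and control littermates, with 3 arrays in each of the 8 groups. Knockout embryos came from crosses of Wnt1-Cre, Tgfbr2 fl/+ mice with Tgfbr2 fl/fl mice, and the strain label is C57B6 in all groups. Wnt1-Cre acts in the neural crest, which forms the jaw mesenchyme, and not in the surface epithelium. The labels call the littermates Control and name no genotype for them. Nothing in the labels ties the 3 arrays of a group to different embryos, and p-values therefore measure the spread between these arrays. In the controls they are not all repeats of 1 embryo, since the Y-linked Eif2s3y was high (10.22 to 10.41) and Xist low in array 2 of each control group and the reverse in arrays 1 and 3. The knockout arrays all had low Eif2s3y and high Xist, so sex was not balanced between genotypes. These 2 genes do not show whether the knockout arrays come from different embryos, and their spread may be technical. The median SD within a group over all genes tested was 0.11 to 0.14 in the knockout and 0.08 to 0.12 in the controls.

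Epithelia cover the jaw primordia on the oral and facial sides. Their cells hold together through cadherins, claudins and desmosomes, carry keratin filaments, and rest on a basement membrane. Krt8 and Krt18 are the keratin pair of simple and early surface epithelium, and Krt5 and Krt14 the pair of basal cells in stratified epithelium. Trp63 drives the stratified programme, the Grainyhead-like and Ovo-like factors maintain epithelial identity, and Esrp1 and Esrp2 set epithelial splicing. In pieces of whole tissue, fewer epithelial cells and less RNA per epithelial cell cannot be told apart.

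Most of the 47 genes gave signal above the low end of the arrays in all groups. Of the 47 genes, 40 lay above the 30th percentile of the array (5.85 to 5.93) in all 24 arrays. That percentile is of all probe sets, whereas each gene is its brightest one. The share of all genes that lay above it in all 24 arrays is not given here, so the count does not set the 47 apart. The 7 others were Krt17 (21 arrays), Lamb3 (20), Grhl1 (23), Ovol1 (13), Ovol2 (23), Elf5 (21) and Ehf (6). Ehf, an epithelial factor of the ETS family, therefore gave little more than a bound. All 47 passed the filter of 3 arrays above that percentile, as did 14879 of all 18193 genes.

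The sequences of 250 bases before the start of 6 genes are shown as examples of genes that differed between jaws or ends: Krt5, Col17a1, Krt8, Krt18 and Cldn3 differed between the jaws, and Krt14 between the ends. They are from RefSeq on GRCm38.p6, 5′ to 3′ on the gene's own strand. Capitals mark matches on either strand to the E-box CAGGTG, which Snail and Zeb repressors can bind, to GCCNNNGGC, an AP-2 motif, to AACNGGTT, a Grainyhead-like motif, and to TATAAA. The regions are Krt5 at chr15:101712906-101713155 (minus strand), Col17a1 at chr19:47692043-47692292 (minus), Krt14 at chr11:100206031-100206280 (minus), Krt8 at chr15:102004343-102004592 (minus), Krt18 at chr15:102027966-102028215 (plus) and Cldn3 at chr5:134985964-134986213 (plus).
Krt5: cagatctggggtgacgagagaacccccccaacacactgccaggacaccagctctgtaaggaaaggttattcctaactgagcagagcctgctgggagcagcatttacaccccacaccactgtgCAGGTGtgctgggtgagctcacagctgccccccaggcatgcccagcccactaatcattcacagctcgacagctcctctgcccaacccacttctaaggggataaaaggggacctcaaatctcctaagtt
Col17a1: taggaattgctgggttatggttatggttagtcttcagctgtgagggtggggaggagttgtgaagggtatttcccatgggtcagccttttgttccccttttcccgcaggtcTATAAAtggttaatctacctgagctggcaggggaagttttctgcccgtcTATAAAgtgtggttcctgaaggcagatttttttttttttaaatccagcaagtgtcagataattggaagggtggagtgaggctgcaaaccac
Krt14: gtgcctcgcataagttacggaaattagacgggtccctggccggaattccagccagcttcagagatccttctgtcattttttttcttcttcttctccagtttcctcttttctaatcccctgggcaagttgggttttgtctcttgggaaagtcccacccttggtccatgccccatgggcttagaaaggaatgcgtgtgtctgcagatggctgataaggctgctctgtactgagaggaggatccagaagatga
Krt8: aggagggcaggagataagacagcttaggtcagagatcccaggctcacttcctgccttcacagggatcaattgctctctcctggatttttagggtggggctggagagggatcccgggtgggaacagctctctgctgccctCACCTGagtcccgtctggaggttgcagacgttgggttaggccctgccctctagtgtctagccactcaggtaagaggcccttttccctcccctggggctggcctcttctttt
Krt18: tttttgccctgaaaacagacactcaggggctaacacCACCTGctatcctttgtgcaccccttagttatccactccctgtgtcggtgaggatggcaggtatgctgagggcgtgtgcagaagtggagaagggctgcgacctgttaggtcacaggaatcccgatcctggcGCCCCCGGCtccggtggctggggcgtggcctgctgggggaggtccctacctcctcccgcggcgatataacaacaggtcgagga
Cldn3: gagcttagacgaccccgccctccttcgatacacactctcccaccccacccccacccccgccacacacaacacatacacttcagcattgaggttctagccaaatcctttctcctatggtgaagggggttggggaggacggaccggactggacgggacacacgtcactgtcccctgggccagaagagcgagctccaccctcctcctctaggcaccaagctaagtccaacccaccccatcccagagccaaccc

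The E-box starts 128 bases before the start of Krt5, 111 before Krt8 and 214 before Krt18, and Krt18 also has an AP-2 match 83 bases before its start. Col17a1 has TATAAA at 140 and 91 bases, and the windows of Krt14 and Cldn3 hold no match. RefSeq sequences were matched for 25 of the 47 genes, with 29 starts. The E-box was present in 16 of these 29 windows (55.2%), against 17.2% of all 32851 windows. Of the genes higher in the maxilla, 10 of 18 windows (15 genes) held it (55.6%), and of those higher in the mandible 2 of 4 windows (50%). The latter come from only 3 genes, too few to show whether the E-box separates the genes by jaw. The AP-2 motif was in 20.7% of members' windows against 13.7% of all, the Grainyhead-like motif in 6.90% against 1.79%, and TATAAA in 3.45% against 12.4%. These are counts of letters and not of bound sites.

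**Figure D1:**
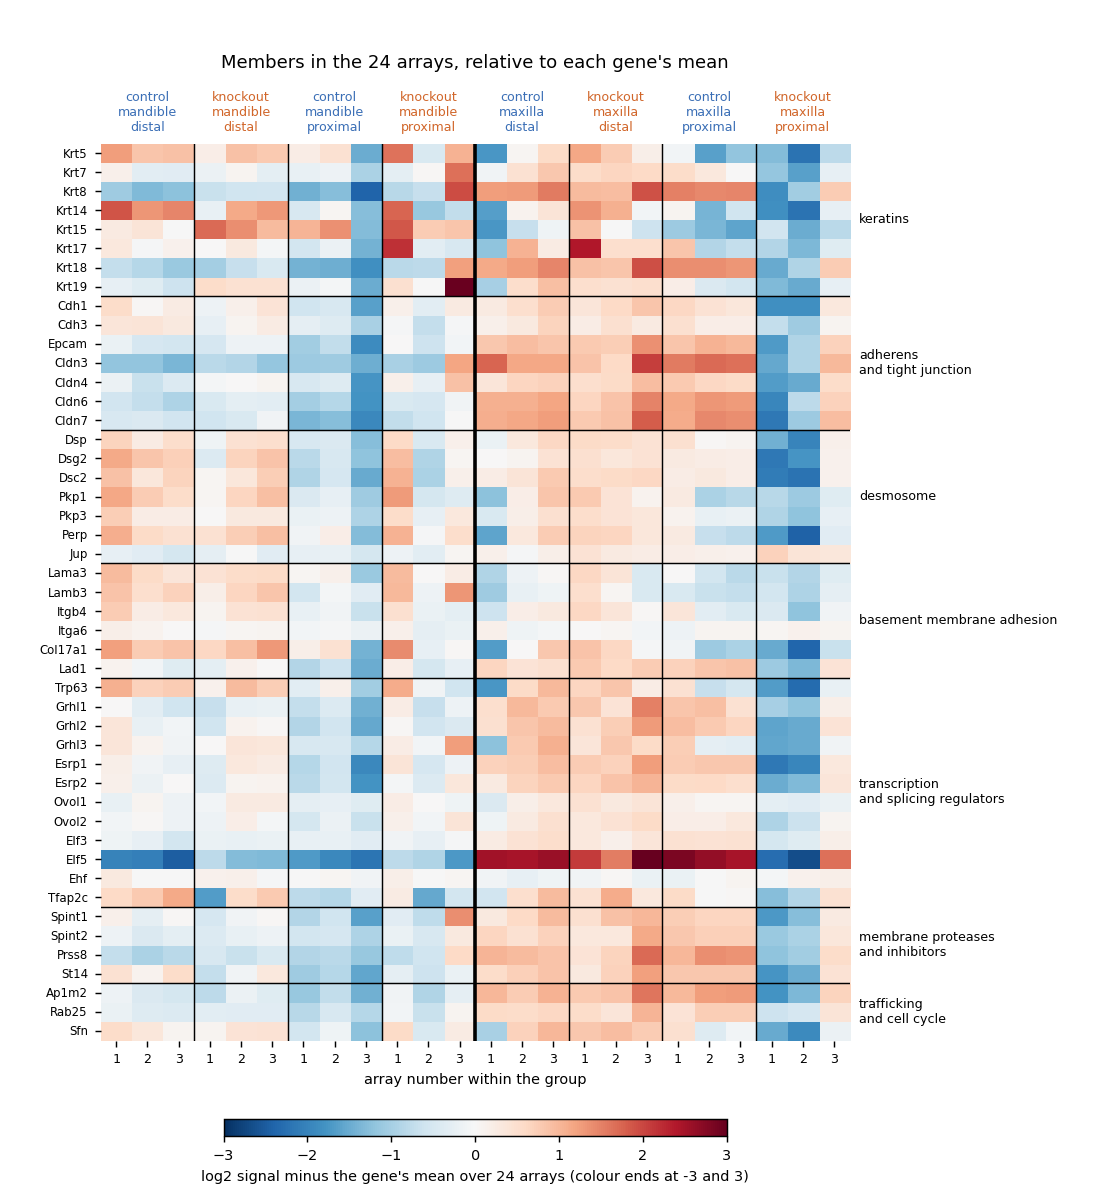
Log2 signal of the 47 genes (vertical axis, by role) in the 24 arrays (horizontal axis, by group and array number), as the difference from each gene's mean, blue for lower and red for higher. Knockout maxilla proximal 1 and 2 and control mandible proximal 3 are low across most genes, and Elf5 separates the control jaws.

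The arrays of a group did not always resemble each other. Knockout maxilla proximal 1 and 2 had 2 and 3 of the 47 genes above their own mean, and array 3 of that group had 30. Control mandible proximal 3 had 0, and knockout mandible proximal 2 had 4 beside 30 and 27 in the other arrays of its group. The median SD within a group ran from 0.15 to 0.92 for these genes, and from 0.08 to 0.14 for all genes tested. Over the other 14832 genes, 7 arrays resembled the other end of their jaw more than their own group: control maxilla distal 1 and 2 and proximal 1, knockout mandible distal 1 and 2 and proximal 1, and knockout maxilla proximal 3. In control maxilla 1 and knockout mandible 1 this held for both ends, and whether their ends were exchanged was not tested. The labels were kept. Tgfbr2 read 11.78 ± 0.29 in control and 12.11 ± 0.40 in knockout arrays (SD, n = 12 each; adjusted p = 0.112). The sources used here do not say whether its probe set lies in the deleted part, so it does not check the labels.

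The comparison of mandible with maxilla, averaged over genotypes and ends, had members on both sides. Higher in the maxilla were Krt8, Krt18, Epcam, 3 claudins, 6 of 12 regulators with Elf5 among them, and all 4 proteases and inhibitors, and higher in the mandible were Krt5, Krt15, Col17a1, Lamb3, Lama3 and Perp. Of the 47 genes, 26 passed the test, 20 higher in the maxilla and 6 higher in the mandible. Of all genes tested, 46.6% passed, 21.4% higher in the maxilla and 25.1% higher in the mandible, against 42.6% and 12.8% of these genes. The share of the 47 that passed in either direction was thus near that of all genes. The median difference, mandible minus maxilla, was -0.21 for these genes and 0.02 for all genes. The count stayed between 23 and 28 when any single array was left out.

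Among the keratins, Krt8 and Krt18 were higher in the maxilla and Krt5 and Krt15 in the mandible. Krt8 read 9.24, 8.99 and 9.08 in control mandible distal arrays, 8.86, 9.03 and 7.92 in control mandible proximal, 11.56, 11.60 and 11.87 in control maxilla distal, and 11.83, 11.76 and 11.77 in control maxilla proximal. In knockout arrays it read 9.64, 9.71 and 9.74 in mandible distal, 9.48, 9.61 and 12.27 in mandible proximal, 11.26, 11.24 and 12.22 in maxilla distal, and 8.44, 9.27 and 11.08 in maxilla proximal. The control jaws did not overlap, whereas the knockout jaws did, through mandible proximal 3 on the high side and maxilla proximal 1 and 2 on the low side. Krt8 differed by -1.69 (SE 0.30, adjusted p = 0.000231), a 3.24-fold higher signal in the maxilla.

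Krt18, the partner of Krt8, read 9.31, 9.16, 8.91, 8.59, 8.56 and 8.17 in the control mandible and 11.16, 11.28, 11.49, 11.41, 11.41 and 11.35 in the control maxilla, distal arrays first. In the knockout it read 8.99, 9.32, 9.55, 9.21, 9.23 and 11.25 in the mandible and 10.89, 10.84, 11.95, 8.51, 9.12 and 10.77 in the maxilla. The same 3 knockout arrays stood apart as for Krt8. The difference was -1.66 (SE 0.25, adjusted p = 4.21e-05).

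Krt15, a keratin of basal cells, read 9.78, 9.90, 9.50, 10.54, 10.89 and 8.22 in the control mandible and 7.77, 8.84, 9.40, 8.43, 8.16 and 7.95 in the control maxilla. Knockout arrays read 11.21, 10.91, 10.47, 11.38, 10.29 and 10.35 in the mandible and 10.41, 9.50, 8.91, 8.95, 8.04 and 8.72 in the maxilla. The jaws overlapped in both genotypes, in the control only through mandible proximal 3. Krt15 was higher in the mandible by 1.53 (SE 0.28, adjusted p = 0.000249).

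Krt5 read 11.19, 10.76, 10.81, 10.16, 10.38 and 8.45 in the control mandible and 8.20, 9.99, 10.50, 9.85, 8.31 and 8.76 in the control maxilla. Among knockout arrays it read 10.13, 10.81, 10.73, 11.57, 9.47 and 10.97 in the mandible and 11.10, 10.69, 10.10, 8.63, 7.73 and 9.14 in the maxilla. Its jaws overlapped, and the difference was 1.04 (SE 0.31, adjusted p = 0.0116). Its partner Krt14 differed by 0.85 (SE 0.36) and did not pass (adjusted p = 0.0624). Krt7, Krt17 and Krt19 had differences of -0.13, -0.02 and 0.32 and did not pass.

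Of the 4 claudins, which seal tight junctions, Cldn3, Cldn6 and Cldn7 were higher in the maxilla. Cldn3 read 8.09, 8.08, 7.90, 8.17, 8.21 and 7.81 in the control mandible and 11.02, 10.43, 10.43, 10.82, 10.98 and 10.93 in the control maxilla. In the knockout it read 8.46, 8.40, 8.12, 8.30, 8.18 and 10.46 in the mandible and 10.12, 9.86, 11.34, 7.74, 8.36 and 10.25 in the maxilla. The control jaws were more than 2 log2 units apart at their nearest arrays, and knockout mandible proximal 3 lay among the maxillary values. Cldn3 differed by -1.84 (SE 0.28, adjusted p = 4.63e-05), Cldn7 by -1.43 (SE 0.24) and Cldn6 by -1.33 (SE 0.21).

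Cldn7 read 9.55, 9.58, 9.46, 8.65, 8.74 and 8.09 in the control mandible and 11.11, 11.19, 11.27, 11.15, 11.47 and 11.41 in the control maxilla, and 9.43, 9.56, 9.91, 9.29, 9.43 and 10.01 in the knockout mandible and 10.80, 10.91, 11.84, 7.88, 8.93 and 10.94 in the knockout maxilla. Cldn6 read 9.42, 9.28, 9.07, 8.97, 9.14 and 8.18 in the control mandible and 11.04, 11.05, 11.16, 11.12, 11.32 and 11.27 in the control maxilla, and 9.53, 9.69, 9.66, 9.53, 9.47 and 9.89 in the knockout mandible and 10.63, 10.83, 11.47, 8.02, 9.21 and 10.68 in the knockout maxilla. Neither overlapped between control jaws, and in the knockout both overlapped only through maxilla proximal 1 and 2. Epcam, a surface adhesion protein of epithelial cells, belongs with the adherens and tight junction genes. It read 11.49, 11.20, 11.14, 10.66, 10.97 and 9.81 in the control mandible and 12.50, 12.62, 12.54, 12.54, 12.74 and 12.67 in the control maxilla. Its knockout mandible arrays read 11.20, 11.54, 11.55, 11.70, 11.08 and 11.61, and its knockout maxilla arrays 12.49, 12.44 and 13.06 distally and 10.80 and 12.40 in proximal 2 and 3, with proximal 1 lower still. The control jaws did not overlap, and Epcam differed by -1.07 (SE 0.20, adjusted p = 0.000317). Its dimmer probe set, above the 30th percentile in all 24 arrays, had -0.29. Cdh1 and Cdh3, the E- and P-cadherins of adherens junctions, differed by -0.22 and -0.21 and did not pass, nor did Cldn4 (-0.50, adjusted p = 0.0701).

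Elf5, an ETS factor of glandular and surface epithelium, had the largest jaw difference of the 47 genes. It read 6.08, 6.05, 5.63, 6.40, 6.16 and 5.91 in the control mandible and 10.62, 10.57, 10.69, 10.92, 10.73 and 10.56 in the control maxilla. Knockout arrays read 7.3, 6.79, 6.76, 7.31, 7.19 and 6.38 in the mandible and 10.19, 9.64, 11.41, 5.82, 5.43 and 9.74 in the maxilla. Control mandible values lay near the 30th percentile of the arrays, and only knockout maxilla proximal 1 and 2 joined them from the maxilla. The measured difference was -3.20 (SE 0.36, adjusted p = 2.52e-06). With mandible values that low, it can understate the true one.

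Of the other regulators, Grhl1 (-0.86), Grhl2 (-0.73), Esrp1 (-0.61), Esrp2 (-0.58) and Elf3 (-0.45) were higher in the maxilla. For Esrp2 and Grhl2 the size depended on the probe set. A dimmer one of Esrp2 had 0.04, and dimmer ones of Grhl2 had -0.09, -0.15 and -0.01. All of these except the Grhl2 one at -0.15 lay above the 30th percentile in all 24 arrays. Esrp1 read 10.24, 9.97, 9.83, 9.2, 9.50 and 8.13 in the control mandible and 10.75, 10.81, 10.82, 10.87 and 10.88 in the control maxilla, where distal 3 was higher still, and 9.68, 10.38, 10.30, 10.46, 9.55 and 9.91 in the knockout mandible and 10.82, 10.76, 11.31, 7.92, 8.10 and 10.38 in the knockout maxilla. Its control jaws did not overlap, and knockout maxilla proximal 1 and 2 were its lowest arrays. Trp63, Grhl3, Ovol1, Ovol2, Ehf and Tfap2c did not pass, with Trp63 at 0.58 (SE 0.31, adjusted p = 0.128). Ehf also depended on its probe set. The brightest had 0.11 between jaws, whereas the 3 dimmer ones had -0.46, -0.85 and -1.63. For the knockout in the proximal maxilla the dimmer ones had -0.57, -1.05 and -1.55. Their means were 4.64, 4.77 and 5.08, and they lay above the 30th percentile in only 0, 1 and 6 arrays. Tfap2c, an AP-2 factor and the brightest regulator, read 10.78, 10.97, 11.32, 9.41, 9.34 and 9.85 in the control mandible and 9.60, 10.70, 11.13, 10.76, 10.18 and 10.21 in the control maxilla, and 8.50, 10.74, 10.96, 10.42, 8.65 and 9.63 in the knockout mandible and 10.65, 11.29, 10.49, 8.90, 9.31 and 10.65 in the knockout maxilla. Its jaws overlapped in both genotypes, and its ends separated in the control mandible, where distal values were higher.

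All 4 proteases and inhibitors were higher in the maxilla, Prss8 (-1.28, SE 0.20), Spint2 (-0.68), St14 (-0.66) and Spint1 (-0.58). Prss8 and St14 are membrane serine proteases, and Spint1 and Spint2 inhibit such proteases. Spint2 read 11.07, 10.79, 10.94, 10.67, 10.73 and 10.30 in the control mandible and 11.87, 11.68, 11.92, 12.03, 11.95 and 11.95 in the control maxilla, and 10.83, 11.01, 11.07, 11.03, 10.75 and 11.52 in the knockout mandible and 11.55, 11.54, 12.37, 10.12, 10.29 and 11.57 in the knockout maxilla. Spint1 read 9.01, 8.58, 8.90, 7.98, 8.26 and 7.24 in the control mandible and 9.15, 9.45, 9.81, 9.60, 9.50 and 9.51 in the control maxilla, and 8.35, 8.76, 8.90, 8.52, 8.09 and 10.25 in the knockout mandible and 9.34, 9.73, 9.86, 7.14, 7.59 and 9.13 in the knockout maxilla. The control jaws of both inhibitors did not overlap. In knockout arrays both were low in maxilla proximal 1 and 2 and highest of the mandible in proximal 3.

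Ap1m2, the epithelial subunit of a sorting adaptor, differed by -1.17 and Rab25, a recycling GTPase, by -0.80, whereas Sfn, a 14-3-3 protein of keratinocytes, did not pass (0.06). Ap1m2 read 9.74, 9.47, 9.36, 8.75, 9.15 and 8.45 in the control mandible and 10.90, 10.65, 10.93, 10.87, 11.15 and 11.17 in the control maxilla, and 9.12, 9.72, 9.54, 9.79, 8.99 and 9.63 in the knockout mandible and 10.68, 10.74, 11.49, 8.10, 8.54 and 10.57 in the knockout maxilla. Its control jaws did not overlap, and knockout maxilla proximal 1 and 2 lay below all knockout mandible arrays. The values of Esrp1 and St14 were -1.004 and -1.01 without knockout maxilla proximal 1 and 2.

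Of the 6 anchoring genes, 3 were higher in the mandible and 1 in the maxilla. Col17a1, the transmembrane collagen of hemidesmosomes, read 9.89, 9.42, 9.52, 8.84, 9.13 and 7.26 in the control mandible and 6.99, 8.69, 9.48, 8.56, 7.58 and 7.71 in the control maxilla. Among knockout arrays it read 9.30, 9.56, 9.97, 10.08, 8.43 and 8.71 in the mandible and 9.53, 9.29, 8.63, 7.15, 6.30 and 8.0 in the maxilla. The jaws overlapped in both genotypes, and the difference was 1.02 (SE 0.30, adjusted p = 0.0096).

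Lamb3 and Lama3, chains of the laminin under epithelia, were higher in the mandible by 0.81 (SE 0.16) and 0.62 (SE 0.18). Lamb3 read 7.40, 7.03, 7.22, 5.99, 6.47 and 6.19 in the control mandible and 5.46, 6.32, 6.41, 6.08, 5.87 and 5.81 in the control maxilla, and 6.70, 7.19, 7.36, 7.51, 6.38 and 7.87 in the knockout mandible and 7.03, 6.59, 6.09, 5.99, 5.62 and 6.27 in the knockout maxilla. Lama3 read 8.55, 8.17, 7.96, 7.65, 7.75 and 6.47 in the control mandible and 6.68, 7.45, 7.64, 7.61, 7.05 and 6.79 in the control maxilla, and 8.02, 8.14, 8.17, 8.54, 7.61 and 7.81 in the knockout mandible and 8.21, 7.98, 7.13, 6.93, 6.71 and 7.23 in the knockout maxilla. Both overlapped between jaws in each genotype, and both separated the ends of the control mandible. Itgb4 and Itga6, subunits of the integrin that binds this laminin, differed by 0.21 and -0.04 and did not pass. Itga6 read 12.01, 11.93, 11.85, 11.74, 11.79 and 11.66 in the control mandible and 11.97, 11.70, 11.77, 11.67, 11.90 and 11.90 in the control maxilla, and 11.79, 11.88, 11.92, 11.97, 11.56 and 11.62 in the knockout mandible and 11.84, 11.89, 11.75, 11.88, 11.96 and 11.92 in the knockout maxilla. It was the steadiest of the genes given here by array, and knockout maxilla proximal 1 and 2 were not low in it. Lad1, a basement membrane protein, went the other way (-0.68, SE 0.16).

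Desmosome genes mostly showed no difference between jaws that passed. Perp, a desmosomal membrane protein and target of p63, was higher in the mandible by 0.76 (SE 0.28, adjusted p = 0.0322), and by 0.47 without knockout maxilla proximal 1 and 2. It read 11.33, 10.82, 10.70, 10.15, 10.46 and 8.94 in the control mandible and 8.66, 10.57, 11.02, 10.52, 9.55 and 9.46 in the control maxilla, and 10.71, 10.99, 11.14, 11.30, 10.21 and 10.77 in the knockout mandible and 10.91, 10.89, 10.60, 8.55, 7.82 and 9.91 in the knockout maxilla. The jaws overlapped in both genotypes. Jup, plakoglobin, read 8.92, 8.83, 8.63, 8.92, 8.94 and 8.64 in the control mandible and 9.31, 9.13, 9.34, 9.35, 9.32 and 9.30 in the control maxilla, and 8.90, 9.15, 8.81, 9.01, 8.84 and 9.23 in the knockout mandible and 9.59, 9.44, 9.39, 9.85, 9.54 and 9.49 in the knockout maxilla. It separated the jaws in both genotypes and was higher in the maxilla (-0.52, SE 0.06, adjusted p = 3.44e-06). Dsp, Dsg2, Dsc2, Pkp1 and Pkp3 lay between 0.06 and 0.45 and did not pass. For Dsg2 the brightest probe set had 0.22, and the dimmer ones ran from 0.20 to 0.74.

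**Figure D2:**
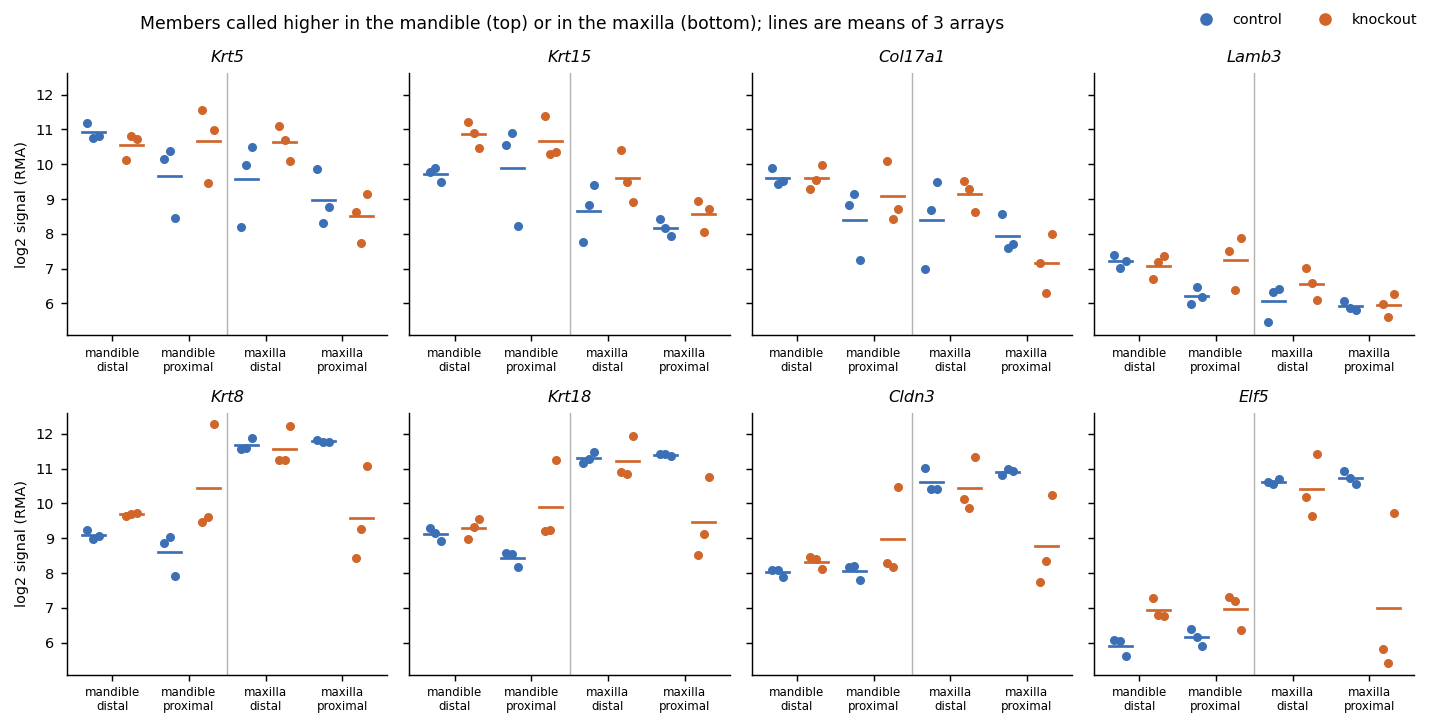
Log2 signal (vertical axis) of 8 genes in the 4 regions (horizontal axis), each point 1 array and each line the mean of 3, blue for control and orange for knockout. Control points of Krt8, Krt18, Cldn3 and Elf5 do not overlap between jaws, whereas Krt5, Krt15, Col17a1 and Lamb3 overlap.

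In the control arrays alone, 21 of the 47 genes did not overlap between the 6 mandible and 6 maxilla arrays, all higher in the maxilla, against 16.7% of all genes tested. In the knockout arrays 1 gene, Jup, did not overlap, against 8.43% of all genes. The difference between genotypes in this respect was tested for each gene as the difference of the knockout effect between jaws. In that limma test 0 of the 47 passed (0.0336% of all genes passed), and 25 had an unadjusted p under 0.05. Without knockout maxilla proximal 3, 24 of the 47 passed.

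Other epithelial genes that are not among the 47 showed both directions. Of 19 tested genes of other junctions and polarity, 12 were higher in the maxilla and 2 in the mandible, with Pkp2 at -1.55 (SE 0.19) and Tjp3 at -1.59 (SE 0.20). Of 15 tested epithelial signals, 5 were higher in the mandible and 1 in the maxilla, with Sostdc1 at 1.25 (SE 0.20) and Wnt10a at 0.86 (SE 0.12). Of all genes tested, 25.1% were higher in the mandible and 21.4% in the maxilla. The 5 of 15 signals are thus near the share of all genes. Markers of eye, nasal and forebrain epithelium moved with the jaw: 5 of 6 tested were higher in the maxilla, with Otx2 at -5.13 and Lhx2 at -4.51. Their summed level, the mean deviation of the list, lay between -1.67 and -0.89 in the 12 mandible arrays and between -0.11 and 2.06 in the 12 maxilla arrays. Their part in the maxillary signal of the 47 genes was not tested.

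The comparison of distal with proximal ends, averaged over genotypes and jaws, gave higher distal signal of 4 of 7 desmosome genes, of Cdh1 and Cdh3, and of 1 of 8 keratins, Krt14. Of the 47 genes, 45 had a positive difference, distal minus proximal, and 12 passed, all higher distally. Of all genes tested, 3.86% passed, 1.59% higher distally. The median difference was 0.55 for these genes and -0.01 for all genes. Neuron and glia markers went the other way: 7 of 10 neuron genes and 3 of 5 glia genes were lower distally, against 2.28% of all genes. The median of the neuron genes was -1.25. Several other cell type lists are not given for this comparison. Skeletal muscle genes had a median of -1.35, and 0 of 10 passed (limma; 9 at an unadjusted p under 0.05). In the control mandible the mean deviation of the neuron genes was -1.52 to -0.87 distally and 0.39 to 1.21 proximally. Their part in the distal signal of the 47 genes was not tested. No member had ends that did not overlap, in control or in knockout arrays (0.39% and 0.0672% of all genes did).

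Krt14, the basal keratin, had the largest end difference. It read 12.10, 11.55 and 11.68 in control mandible distal arrays and 9.74, 10.29 and 8.95 in proximal, and 8.58, 10.32 and 10.61 in control maxilla distal and 10.30, 8.82 and 9.62 in proximal. In the knockout it read 10.01, 11.37 and 11.52 in mandible distal, 11.98, 9.08 and 9.49 in proximal, 11.57, 11.29 and 10.15 in maxilla distal and 8.38, 8.0 and 9.97 in proximal. The ends separated in the control mandible and in the knockout maxilla, and overlapped in the other pairs through array 1. Krt14 was higher distally by 1.34 (SE 0.36, adjusted p = 0.0449).

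Desmosomal cadherins and plaque proteins followed. Dsc2 read 9.83, 9.30, 9.63, 9.18, 9.34 and 9.74 in control distal arrays, mandible first, and 8.06, 8.46, 7.46, 9.19, 9.25 and 9.17 in control proximal arrays. Knockout arrays read 9.02, 9.30, 9.70, 9.49, 9.53 and 9.58 distally and 10.002, 8.0, 9.12, 6.87, 6.75 and 9.08 proximally. Distal values stayed within 9.02 to 9.83, and proximal values spread from 6.75 to 10.002. Dsc2 was higher distally by 1.02 (SE 0.24), Dsg2 by 0.93 (SE 0.24), Dsp, which ties desmosomes to keratin, by 0.76 (SE 0.20) and Pkp3 by 0.55 (SE 0.14). Dsg2 read 11.72, 11.40, 11.30, 9.76, 10.09 and 9.37 in the control mandible and 10.60, 10.65, 11.01, 10.84, 10.79 and 10.77 in the control maxilla, and 10.16, 11.24, 11.43, 11.51, 9.67 and 10.63 in the knockout mandible and 11.06, 10.91, 11.01, 8.44, 8.80 and 10.71 in the knockout maxilla, distal arrays first. Dsp read 12.56, 12.14, 12.43, 11.40, 11.47 and 10.62 in the control mandible and 11.70, 12.20, 12.51, 12.37, 11.93 and 11.97 in the control maxilla, and 11.77, 12.34, 12.40, 12.48, 11.43 and 12.04 in the knockout mandible and 12.47, 12.45, 12.33, 10.45, 9.90 and 12.05 in the knockout maxilla. In both genes the ends separated in the control mandible and the knockout maxilla and overlapped in the other pairs, as for Krt14.

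Cdh1 (0.76, SE 0.21) and Cdh3 (0.54, SE 0.12) were also higher distally, as were Grhl2 (0.72), Esrp1 (0.84), Esrp2 (0.67), St14 (0.83) and Sfn (0.85). Dimmer probe sets of Grhl2 had -0.01, 0.08 and 0.01, and a dimmer one of Esrp2 had 0.38. Cdh1 read 11.52, 10.99, 11.21, 10.36, 10.48 and 9.32 in the control mandible and 11.23, 11.47, 11.72, 11.58, 11.39 and 11.30 in the control maxilla, and 10.81, 11.12, 11.37, 11.11, 10.65 and 11.24 in the knockout mandible and 11.32, 11.55, 11.79, 9.12, 9.12 and 11.28 in the knockout maxilla. Sfn read 9.02, 8.81, 8.54, 7.91, 8.34 and 7.24 in the control mandible and 7.49, 9.15, 9.47, 8.95, 8.09 and 8.39 in the control maxilla, and 8.54, 8.87, 8.90, 9.03, 8.02 and 8.72 in the knockout mandible and 9.28, 9.40, 9.23, 6.95, 6.55 and 8.29 in the knockout maxilla. St14 read 8.98, 8.63, 9.07, 7.45, 7.66 and 6.96 in the control mandible and 9.07, 9.24, 9.37, 9.34, 9.34 and 9.32 in the control maxilla, and 7.80, 8.42, 8.84, 8.25, 7.89 and 8.33 in the knockout mandible and 8.82, 9.21, 9.76, 6.74, 7.03 and 8.96 in the knockout maxilla. Distal and proximal values of Cdh1, Sfn and St14 separated in the control mandible, and those of Cdh1 and Sfn also in the knockout maxilla. The adjusted p of Cdh1, Cdh3, Grhl2, Esrp1, Esrp2, St14 and Sfn lay between 0.0318 and 0.0497. Of the 12 genes, 8 had not passed between jaws. The basal genes Krt5 (0.97), Col17a1 (1.04) and Trp63 (0.96) had differences of similar size but wider errors and did not pass (adjusted p 0.0752, 0.0555 and 0.0729). Krt8 and Krt18 had 0.40 and 0.44 and did not pass.

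The count of genes that passed between ends rested on single arrays. It lay between 0 and 33 when 1 array was left out, with 0 without knockout maxilla proximal 1 or 2 and 33 without knockout maxilla proximal 3. The sizes moved less than the count. Without array 1 and without array 2 of that group, Dsc2 stood at 0.93 and 0.92 and Krt14 at 1.29 and 1.25. Without knockout maxilla proximal 1 and 2 the median was 0.32 and Krt14 stood at 1.05, while Dsc2 (0.64), Dsg2 (0.58), Dsp (0.45), Cdh1 (0.40), Esrp1 (0.45) and St14 (0.48) had smaller differences. Without both ends of control maxilla 1 and of knockout mandible 1 (4 arrays), 26 passed, with Krt14 at 1.94, Trp63 at 1.45, Pkp1 at 1.30 and Krt17 at 1.20. With genotype and array number as a random replicate block 22 passed. In the mandible alone 0 of the 47 passed (0.504% of all genes), with 39 positive differences, a median of 0.38 and 15 at an unadjusted p under 0.05. In the maxilla alone 0 passed (0.0336%), with 44 positive, a median of 0.81 and 39 at an unadjusted p under 0.05. The difference of the end change between jaws passed for 0 of the 47 (limma, 0% of all genes; 5 at an unadjusted p under 0.05).

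**Figure D3:**
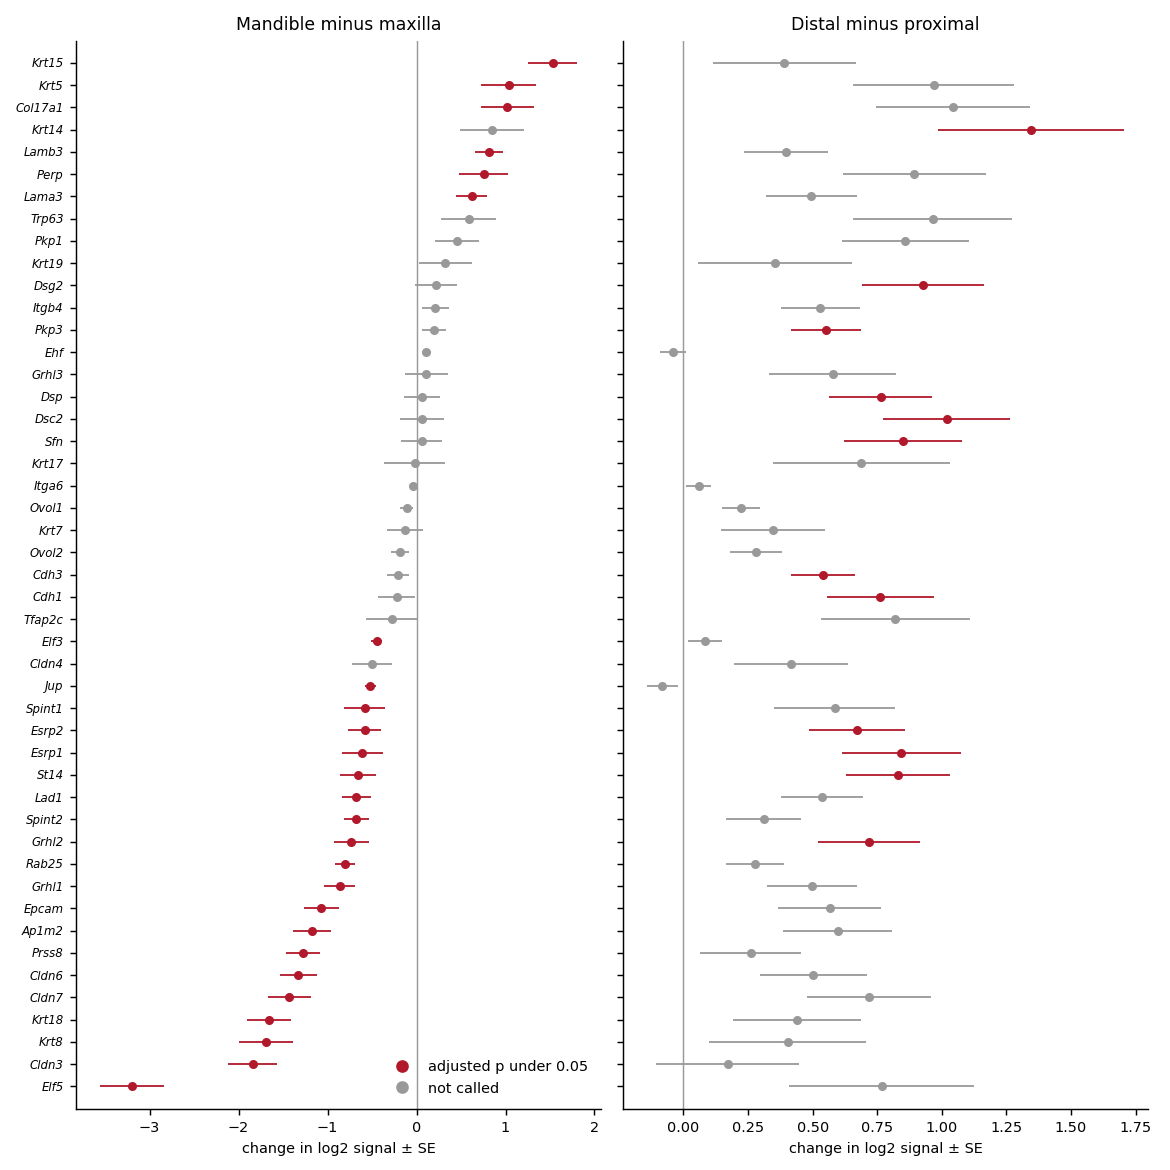
Differences in log2 signal with their SE (horizontal axes) of the 47 genes (vertical axis, in order of the jaw difference), mandible minus maxilla on the left and distal minus proximal on the right, red where the adjusted p was under 0.05. Elf5 lies at -3.20 and Krt15 at 1.53 between jaws, and 45 of the 47 genes lie above 0 between ends.

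Averaged over the 4 regions, the knockout changed no gene of the 47 beyond the test (limma, 0.47% of all genes passed). The median difference, knockout minus control, was -0.05, and 4 genes had an unadjusted p under 0.05. These were Jup (0.22, SE 0.06, adjusted p = 0.0703), Krt15 (0.81, SE 0.28, adjusted p = 0.111), Lamb3 (0.36) and Elf3 (-0.15). Without knockout maxilla proximal 3, 8 genes passed.

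The 4 regions differed in their medians. In the distal mandible the median was -0.01, and 0 genes passed (limma, 0.134% of all genes; 0 at an unadjusted p under 0.05). Krt15 had the smallest p there, at 1.14 (SE 0.55, adjusted p = 0.406), and its arrays did not overlap. In the distal maxilla the median was 0.21, and 0 passed (0.0202%; 1 at an unadjusted p under 0.05, Ovol1 at 0.36).

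In the proximal mandible 46 of the 47 genes had a higher mean in the knockout, with a median of 0.80, and 0 passed (limma, 0.0538% of all genes; 19 at an unadjusted p under 0.05). The groups did not overlap for 17 genes, all higher in the knockout, against 9.45% of all genes. Krt8 had the largest difference, 1.85 (SE 0.61), which was 0.94 without knockout mandible proximal 3, and Lamb3 the smallest p, at 1.04 (SE 0.33). Control mandible proximal 3 was the lowest array of its group in 45 genes, and without it the median was 0.52. Neuron markers were lower in the knockout there: all 10 had a negative difference, with a median of -1.23, and 1 passed. Their mean deviation was 0.39 to 1.21 in the control arrays and -0.94 to -0.62 in the knockout arrays, and their part in the difference of the 47 genes was not tested.

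Knockout mandible proximal 3 was high in some genes only. It read 12.27 for Krt8, where the other arrays of its group had 9.48 and 9.61, and 11.10 for Krt19, where they had 8.63 and 8.14. Cldn3 read 10.46 against 8.30 and 8.18, and Spint1, a protease inhibitor, 10.25 against 8.52 and 8.09. Elf5 was not high there, at 6.38 against 7.31 and 7.19.

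In the proximal maxilla the genes were lower in the knockout. Of the 47, 42 had a negative difference, with a median of -1.21, and 22 fell beyond the test, against 5.77% of all genes in either direction and 2.53% lower. All 7 adherens and tight junction genes fell, as did 7 of 12 regulators, 3 of 4 proteases and inhibitors, 2 of 3 trafficking and cell cycle genes, 2 of 8 keratins, 1 of 6 anchoring genes and 0 of 7 desmosome genes. Of 12 other probe sets of these genes that were above the filter, 11 had the same direction. The size could differ: Grhl2 had -1.68 at its brightest probe set and -0.17, -0.37 and 0.02 at the dimmer ones. The arrays did not overlap for 29 genes, 28 of them lower in the knockout, against 25.3% of all genes.

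Elf5 read 10.92, 10.73 and 10.56 in control and 5.82, 5.43 and 9.74 in knockout arrays of the proximal maxilla. It fell by 3.74 as measured (SE 0.72, adjusted p = 0.0127), and with 2 knockout values below the 30th percentile this can understate the fall. Knockout arrays 1 and 2 lay at the level of the mandible, and array 3 lay nearer the controls. Krt8 read 11.83, 11.76 and 11.77 in control and 8.44, 9.27 and 11.08 in knockout arrays, and it fell by 2.19 (SE 0.61, adjusted p = 0.0418).

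Cldn3 read 10.82, 10.98 and 10.93 in control and 7.74, 8.36 and 10.25 in knockout arrays, and it fell by 2.12 (SE 0.56, adjusted p = 0.0338). Cldn7 read 11.15, 11.47 and 11.41 in control and 7.88, 8.93 and 10.94 in knockout arrays, and it fell by 2.09 (SE 0.48, adjusted p = 0.0229). In each of these genes the third knockout array was the highest of its group and lay below every control array. Cdh1 read 11.58, 11.39 and 11.30 in control and 9.12, 9.12 and 11.28 in knockout arrays, with array 3 just under the lowest control.

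Genes of the basal programme did not pass in the proximal maxilla. Krt5 had -0.47, Krt14 -0.80, Col17a1 -0.80 and Trp63 -1.14. Apart from Krt5, these were larger than the differences of some genes that passed, such as Elf3 (-0.69) and Ovol2 (-0.73). Trp63 read 10.45, 9.30 and 9.46 in control and 8.32, 7.69 and 9.78 in knockout arrays. Not passing therefore does not show that the basal genes were unchanged. Desmosome genes had sizes up to -1.64 (Dsc2, SE 0.49, adjusted p = 0.0543). Jup had 0.30 (SE 0.12, adjusted p = 0.122), higher in all 3 knockout arrays.

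Much of the size of the fall came from knockout arrays 1 and 2, and the count that passed depended on other arrays too. Without knockout maxilla proximal 1 or without 2, 0 of the 47 genes passed, with Elf5 at -3.15 and -2.96 and Krt8 at -1.61 and -2.03. Without both the median was -0.17, with Elf5 at -0.99 and Krt8 at -0.70. Without control maxilla proximal 1, 2 or 3, 0, 2 and 2 passed, and without knockout maxilla proximal 3, 31 passed. Elf5 stood at -3.64 without control maxilla proximal 1. The same 2 knockout arrays had the highest neuron markers of the 24 arrays. The mean deviation of 10 neuron genes was 3.44, 3.16 and 1.42 in knockout maxilla proximal 1, 2 and 3 and between -0.27 and 0.07 in the controls of that region. Of these genes 6 rose in the knockout there, against 3.25% of all genes, with Pou4f1 at 5.09 (SE 0.48) and Sncg at 4.65 (SE 0.48). Glia markers (0.46 to 1.69 in these knockout arrays) and skeletal muscle markers (-0.40 to 1.84) were also above the controls (-0.53 to 0.23 and -2.18 to -1.61). Markers of mesenchyme lay between -0.35 and -0.05 there and between -0.13 and 0.04 in the controls. The part of neural and muscle tissue in the fall of the epithelial genes was not tested.

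**Figure D4:**
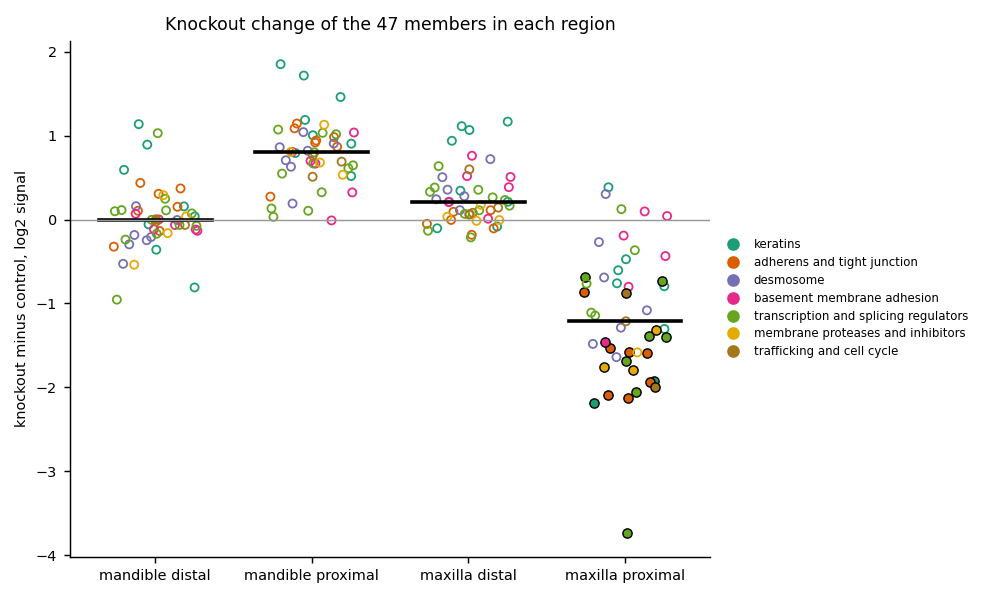
Knockout minus control difference in log2 signal (vertical axis) of the 47 genes in each region (horizontal axis), coloured by role, with bars at the median and filled points where the adjusted p was under 0.05. Medians are -0.01, 0.80, 0.21 and -1.21, and the filled points lie in the proximal maxilla.

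**Figure D5:**
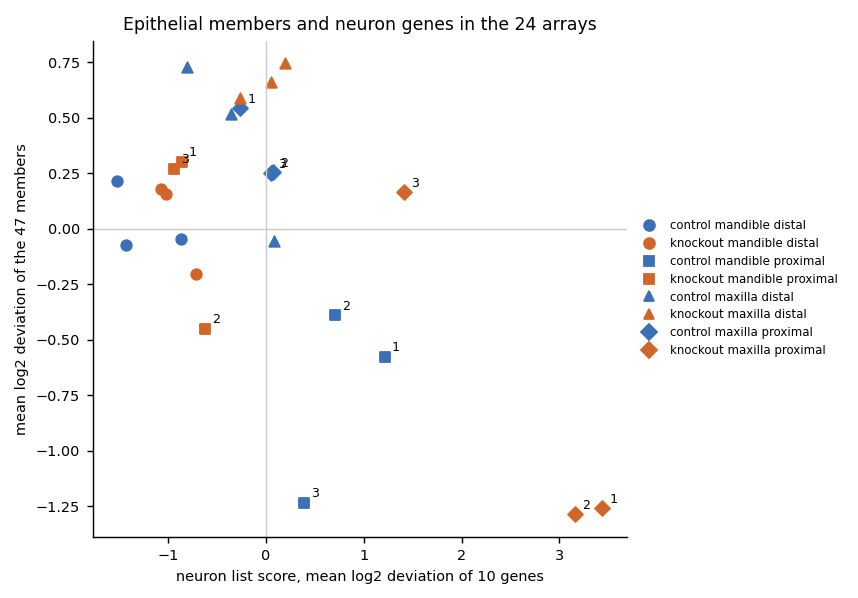
Mean log2 deviation of the 47 genes (vertical axis) against that of 10 neuron genes (horizontal axis), each point 1 array, with array numbers beside proximal arrays. Knockout maxilla proximal 1 and 2 lie at -1.26 and -1.29 for the 47 genes and at 3.44 and 3.16 for the neuron genes.

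In the proximal maxilla 9 of 19 tested genes of other junctions and polarity fell (2.53% of all genes were lower), with Cldn23 at -2.25 (SE 0.49) and Marveld2 at -1.28 (SE 0.29). The other 10 did not pass, among them Cldn1 at 1.14 (adjusted p = 0.0504) and Dst at 0.55. Of 6 repressors of the epithelial programme in epithelial-mesenchymal transition, 0 passed there (limma), and Zeb1 had the smallest p, at 0.66 (SE 0.22, adjusted p = 0.0731). Between ends, Zeb2 (0.50) and Snai1 (0.55) were higher distally, Zeb1 (-0.42) was lower, and Snai2, Twist1 and Twist2 did not pass. Of the 9 tested other regulators, Barx2 rose in the knockout over the 4 regions, by 0.73 (SE 0.15, adjusted p = 0.0347).

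The knockout effect at the proximal ends, mandible minus maxilla, differed for 14 of the 47 genes (0.699% of all genes), in a comparison added after seeing the data. All 14 had the higher effect in the mandible, with Elf5 at 4.54 (SE 1.01) and Krt8 at 4.04 (SE 0.86). Without knockout maxilla proximal 1 it was 1 gene, without 2 it was 0 genes, and without 3 it was 33. The difference of the knockout effect between distal and proximal ends passed for 0 of the 47 (limma, 0.00672% of all genes; 2 at an unadjusted p under 0.05).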

How the data were processed

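Biotin-labelled cRNA of the 24 samples was hybridised to 1-colour arrays. The deposited table holds log2 signal for 45101 probe sets, made by the authors with RMA (named in the submitters' processing notes). The RMA version was not given in the sources used here. Array medians lay between 7.26 and 7.38, no array was a copy of another, and array number limits the precision. Probe sets with 1 symbol in the platform annotation (34945) gave 18193 genes, each represented by its brightest probe set on average. Probe sets that were controls (64), unnamed (9160) or shared by several symbols (932) were not used. Genes above the 30th percentile of the array in at least 3 arrays (14879) were tested.

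Limma 3.58.1 (R 4.3.3) estimated a mean per group (8 groups, all 24 arrays, residual df 16). Contrasts were tested two-sided, with Benjamini-Hochberg adjustment over all genes tested, separately in each comparison. A gene passed at an adjusted p under 0.05. The script was tested on simulated data. The genes, lists and tests were chosen with earlier results of these data known. Values in every array were given for the 2 members with the highest mean in each role and for those with the largest changes that passed, and changes alone for most members named by smallest p where few passed; members described beyond that, such as Krt19 and Spint1 in knockout mandible proximal 3, were chosen after their values were seen. The 6 printed promoters are a hand-picked selection of genes that differed between jaws or ends. Motif counts were known when the selection was settled, and Elf5, with the largest jaw difference, is not shown. Alternatives covered scaling, filters, probe sets, the prior, array weights, array numbers as blocks and arrays left out. Some listed genes are not reported here.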

Additional observations from a re-analysis of the deposited data

Results flagged for a closer look

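The knockout effect differed between the jaws at the proximal ends, as tested by the difference itself (mandible effect minus maxilla effect, limma, a comparison added after seeing the data). Of the 47 genes, 14 passed, against 0.699% of all genes, all with the higher effect in the mandible. The differences were 4.54 for Elf5, 4.04 for Krt8, 3.38 for Krt18, 3.18 for Cldn7, 3.09 for Esrp1, 2.81 for Cldn6, 2.68 for Ap1m2, 2.57 for Epcam, 2.56 for St14, 2.47 for Prss8, 2.40 for Esrp2, 2.26 for Lad1, 1.85 for Spint2 and 1.34 for Ovol2. Their adjusted p lay between 0.0273 and 0.0439. The count was 0 without knockout maxilla proximal 2 and 1 without knockout maxilla proximal 1, and 33 without knockout maxilla proximal 3.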

How the results depend on the processing

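No result changed direction among called values under the alternatives, and the jaw count (26) ran from 23 to 28 with 1 array left out. With 1 array left out, the number of the 47 genes that passed ran from 0 to 33 between ends (12 with all arrays), 0 to 3 between ends in the mandible, 0 to 33 between ends in the maxilla, 0 to 8 for the knockout over 4 regions, 0 to 31 for the knockout in the proximal maxilla (22), 0 to 24, 0 to 2 and 0 to 1 for the differences of the knockout effect between jaws and between ends and of the end change between jaws, and 0 to 33 for the difference of the knockout effect between jaws at the proximal ends (14). Array weights gave 32 between ends, 14 and 40 in mandible and maxilla, 6 for the knockout, 17 in the proximal mandible, 24 and 3 for the differences between jaws of the knockout effect and of the end change, and 34 at the proximal ends. Without control maxilla 1 and knockout mandible 1 (4 arrays) the counts were 26 between ends, 9 and 12 in mandible and maxilla, 0 for the knockout in the proximal maxilla, 1 for the end change between jaws and 0 at the proximal ends. Without knockout maxilla proximal 1 and 2, an alternative chosen after seeing the data, they were 0 between ends, 3 in the mandible, 0 in the proximal maxilla and 0 at the proximal ends. Without a filter 6 passed between ends. Between groups, arrays of the same genotype and number had a median correlation of 0.15 (lowest -0.65) once group means were removed. Pairs with other numbers had -0.06 (lowest -0.60), and pairs with the same number and the other genotype 0.04. The consensus correlation of genotype and number as a random block was 0.16, and the report's setting used no block. Eif2s3y was high and Xist low in the 4 control arrays numbered 2 and in no other. Whether the number follows an embryo or litter was not tested. With the number as a replicate block the counts were 22 between ends and 24 at the proximal ends (random block), 1 and 22 for the differences of the knockout effect between jaws over both ends and at the proximal ends (6 fixed blocks), and 1 for the knockout (number alone). Over all genes tested, the alternatives called 5548 to 7861 between jaws (6928 in the report's setting), 32 to 5168 between ends (575), 1 to 2148 and 2 to 3825 between ends in mandible and maxilla (75 and 5), 6 to 2906 for the knockout (70), 7 to 3366 in the proximal maxilla (859), 0 to 642, 0 to 294 and 0 to 14 in the distal mandible, proximal mandible and distal maxilla (20, 8 and 3), 2 to 640 and 0 to 173 for the differences of the knockout effect between jaws and ends (5 and 1), 0 to 357 for the end change between jaws (0) and 5 to 2194 at the proximal ends (104). These ranges over all genes are not matched to single settings. Counts of the 47 genes under an alternative, here and above, therefore do not show a shift particular to them. The causes of the shifts were not tested.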
